A study of Mus musculus with 11 samples.

Results

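The genes described are 9 cell adhesion genes of 21846 measured, chosen by symbol: the cadherins Cdh1, Cdh2, Cdh3 and Cdh11, the catenins Ctnna1, Ctnnb1 and Ctnnd1, and the surface proteins Epcam and Nectin4. Their RNA was followed through 11 RNA-seq libraries of mouse mammary carcinoma cell lines that kept or lost human HER2, to see whether another cadherin took the place of Cdh1 where HER2 was lost and whether the catenins followed.

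All lines came from mammary tumors of virgin female FVBhuHER2 mice, which carry the human HER2 transgene, so every group shares that origin. MamBo89HER2stable was derived from tumor A and MamBo43HER2labile from tumor B, and MamBo38HER2loss from a tumor that grew after MamBo43 cells were injected. The HER2-positive libraries (n = 5) were MamBo89 untreated parental cells, MamBo89 "AG3" cells (untreated, taken as the clone that the study's methods list), MamBo89 grown with trastuzumab, an antibody against HER2, for 60 days or for 30 days followed by 30 days without it, and untreated MamBo43. The HER2-negative libraries (n = 6) were MamBo43 under the same trastuzumab schedules, which lost most of their HER2, and MamBo38, as 2 untreated libraries and 1 of each schedule. Trastuzumab was given at 30 µg/ml. The human HER2 transgene itself is not analysed here. The treated MamBo43 cultures kept a minor HER2-positive share and islets of polygonal cells according to the study, and each library is RNA of a whole culture, so that fewer cells of a type and less RNA per cell cannot be told apart.

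Totals ranged from 17040454 to 27127662 counts per library. Levels are TMM-scaled CPM, the count of a gene relative to the effective size of its library. At these depths 1 count was worth 0.0375 to 0.0596 CPM, and 3 counts, used as the detection floor, 0.112 to 0.179 CPM. Within MamBo89 the AG3 library stood apart: 1694 to 2198 genes above 5 CPM differed at least 2-fold between it and the other MamBo89 libraries, against 55 to 267 among the others. Within MamBo38 1 untreated library, which carries the label code of the other lines, stood apart from the 3 that carry another code, by 563 to 722 genes against 9 to 14 among those 3.

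Classical cadherins are calcium-dependent receptors that hold neighbouring cells together at adherens junctions. Their cytoplasmic tails bind beta-catenin and p120-catenin, and alpha-catenin links beta-catenin to actin. Mammary luminal cells are held together mainly by E-cadherin (Cdh1), myoepithelial cells also carry P-cadherin (Cdh3), and mesenchymal cells typically carry N-cadherin (Cdh2) or OB-cadherin (Cdh11). A change from Cdh1 to Cdh2 is the usual textbook mark of an epithelial-mesenchymal transition.

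In the comparison of HER2-negative with HER2-positive libraries, 7 of the 9 genes were abundant enough to be tested, and 4 were called, all lower: Cdh1, Epcam, Nectin4 and Ctnnd1. Across the transcriptome 32.8% of the 12364 genes tested were called in either direction, and 17% of the genes tested were called lower in the HER2-negative libraries. A gene was called at an adjusted p under 0.1 (Benjamini-Hochberg over all genes tested) with a change of at least 2-fold. For the same 4 genes no HER2-negative library reached the lowest HER2-positive library, as was the case, in this direction, for 17.3% of genes tested. Cdh2, Ctnna1 and Ctnnb1 were not called, and Cdh3 and Cdh11 were too scarce in most libraries to be tested. With tumor of origin in the model, where untreated MamBo43 is the only HER2-positive library of tumor B, Nectin4 alone stayed called. Within tumor B, MamBo38 was called lower than untreated MamBo43 in Cdh1, Epcam, Nectin4 and Cdh11, where 35.8% of genes tested were called in either direction.

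**Figure D1:**
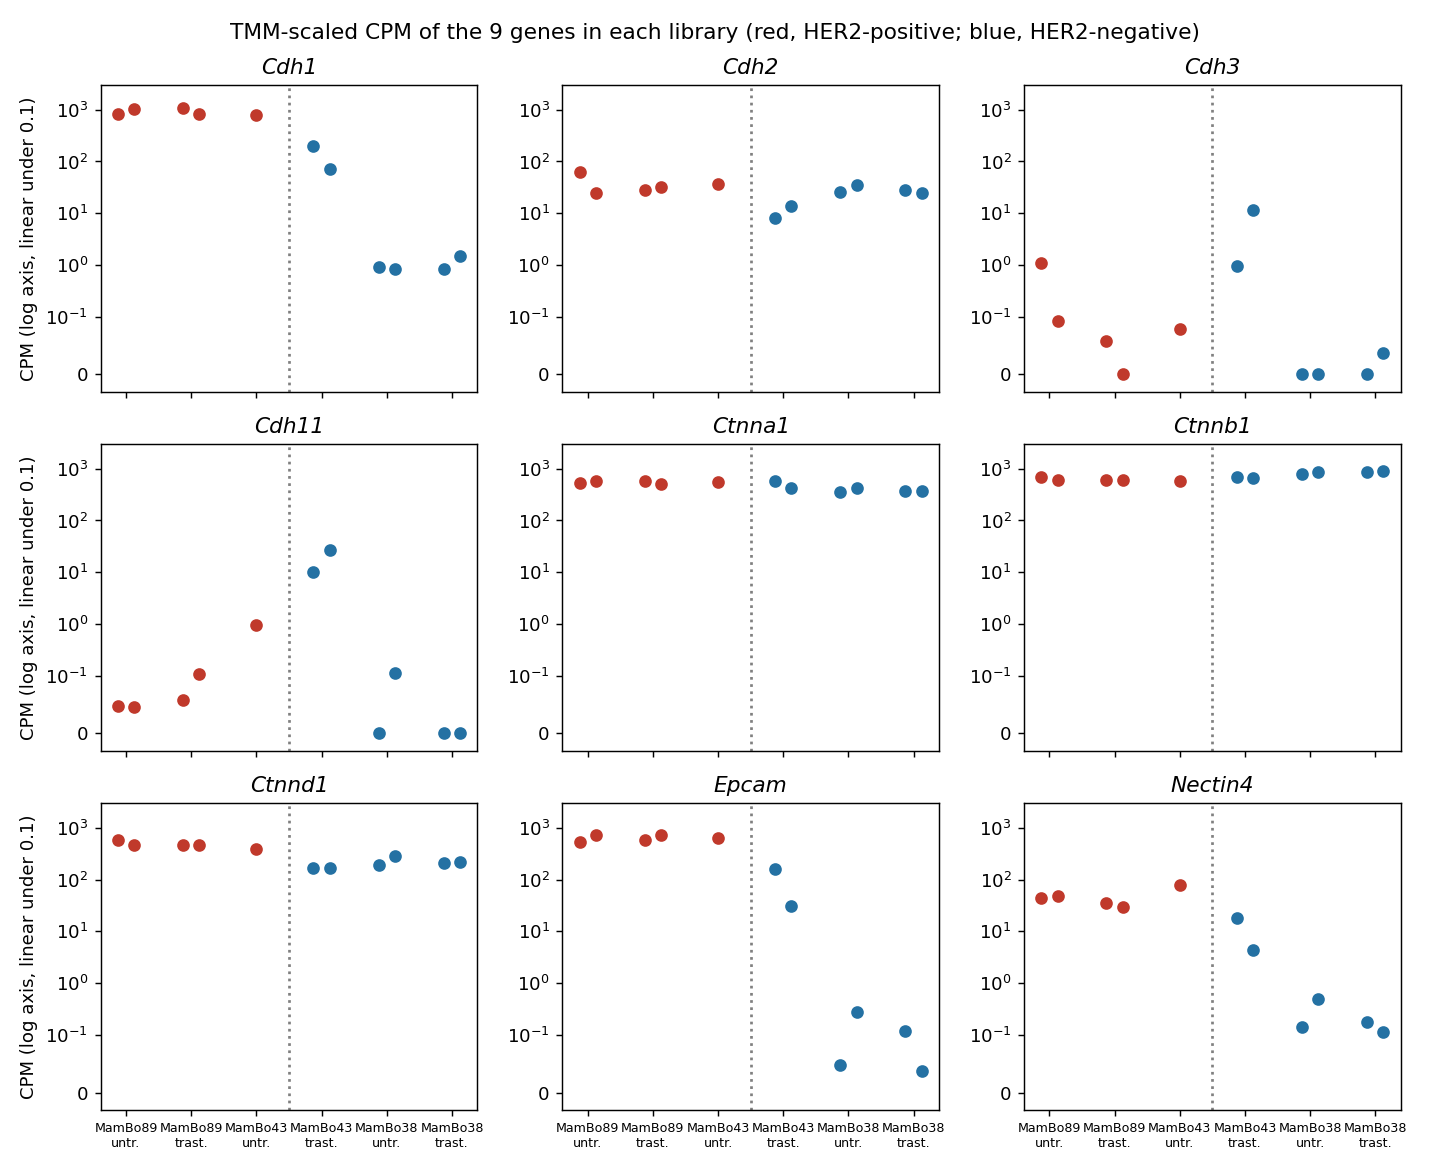
TMM-scaled CPM of the 9 genes in each of the 11 libraries, on a log axis that is linear under 0.1, by line and treatment (untr., untreated; trast., trastuzumab). Cdh1, Epcam and Nectin4 drop in treated MamBo43 and again in MamBo38, Cdh11 and Cdh3 are highest in treated MamBo43, and the catenins span less than 4-fold.

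Cdh1 encodes E-cadherin, the junctional cadherin of epithelia, and lies on chromosome 8 at 106603351-106670246 (mm10). It was measured at 810 CPM in AG3, 1034 in parental MamBo89, 1084 in MamBo89 after 30 days with and 30 days without trastuzumab, 835 after 60 days with it, and 776 in untreated MamBo43. In treated MamBo43 it fell to 201 CPM on the interrupted schedule and 71.8 CPM on the continuous schedule. In MamBo38 it was read at 0.915, 0.837, 0.834 and 1.5 CPM, from 14 to 40 counts per library. The HER2-negative libraries thus formed 2 separate levels, both below every HER2-positive library. The pooled difference was -4.30 ± 1.47 (log2 fold change ± SE, 6 against 5 libraries, adjusted p = 0.0290). MamBo38 alone lay further down, at -9.55 ± 0.48 against untreated MamBo43, its line of origin (adjusted p = 9.84e-06, where 35.8% of genes were called), and at -9.83 ± 0.45 against MamBo89 (adjusted p = 7.64e-07, where 41.8% were). By counts, untreated MamBo43 held 724 times the Cdh1 of MamBo38 (95% exact interval 588 to 904, counting error only).

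Cdh2, on chromosome 18, encodes N-cadherin. It stood at 63.9 CPM in AG3, 24.1, 28.5 and 32.3 CPM in the other MamBo89 libraries, and 36.2 CPM in untreated MamBo43. MamBo38 gave 26.3, 34.6, 27.5 and 25 CPM, inside the HER2-positive range. The lowest levels were in treated MamBo43, at 8.04 CPM on the interrupted and 13.5 CPM on the continuous schedule. Between HER2-negative and HER2-positive libraries the difference was -0.72 ± 0.37 (adjusted p = 0.120), which did not pass. With single libraries left out it ranged from -0.86 to -0.41. In treated MamBo43, Cdh2 fell below the untreated line (-1.74 ± 0.50, adjusted p = 0.0319) and lay below MamBo38 (-1.39 ± 0.39, adjusted p = 0.0307). Both calls were lost without the interrupted-schedule library (-1.44, adjusted p = 0.114, and -1.05, adjusted p = 0.200). No comparison called Cdh2 higher in a HER2-negative group.

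Cdh11 encodes OB-cadherin, a cadherin of mesenchymal cells, and lies on chromosome 8 at 102632095-102785642. It gave 9.95 CPM (203 counts) in MamBo43 on the interrupted schedule and 26.4 CPM (692 counts) on the continuous schedule, against 0.981 CPM (25 counts) in untreated MamBo43. MamBo89 held 1 or 2 counts in each library, and MamBo38 held 0, 2, 0 and 0 counts, all under the detection floor. Cdh11 rose in treated MamBo43 by 4.21 ± 0.93 on the log2 scale (adjusted p = 0.0148). It was also higher in untreated MamBo43 than in untreated MamBo89 (4.21 ± 1.07, adjusted p = 0.0417), the sole gene of the 9 called there, where 15.5% of genes were called. That call was lost when the fit held these libraries alone (adjusted p = 0.320). By counts, treated MamBo43 held 789.5 times the Cdh11 of MamBo38 (95% exact interval 218 to 6529, from 2 counts in MamBo38, counting error only), so both HER2-negative lines differed in this gene.

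Cdh3, which encodes the P-cadherin of myoepithelium, lies on the same strand of chromosome 8 at 106510891-106557297, and its end is 46.1 kilobases from the start of Cdh1. It gave 11.3 CPM (296 counts) in MamBo43 on the continuous schedule and 0.981 CPM (20 counts) on the interrupted schedule, against 2 counts in untreated MamBo43. AG3 gave 1.11 CPM (23 counts). The other MamBo89 libraries held 0 to 2 counts and the MamBo38 libraries 0 or 1. Treated MamBo43 was called higher than untreated (6.20 ± 2.24, adjusted p = 0.0745), but without the continuous-schedule library the value was 3.55 (adjusted p = 0.262). The ratio by counts was 86.5, with a 95% exact interval of 23.8 to 718 that covers counting error only. The 7 basal markers listed did not move together between treated and untreated MamBo43: the smooth muscle actin Acta2 was called higher (7.69 ± 1.59, adjusted p = 0.0149), Oxtr was called lower (-4.11 ± 1.15, adjusted p = 0.0295) and the other 5, Krt14 among them (4.66 ± 1.91, adjusted p = 0.106), were not called. In untreated MamBo43, on the interrupted schedule and on the continuous schedule, the keratin Krt14 stood at 2.39, 9.91 and 111 CPM, Krt5 at 0, 0.049 and 3.82 CPM, and Krt17 at 0.0392, 0 and 0.306 CPM. In the same order Acta2 stood at 1.29, 69.2 and 465.6 CPM, Trp63 at 22.7, 34.4 and 40.8 CPM, Oxtr at 0.824, 0 and 0.0764 CPM, and Myh11 at 0.118, 0.245 and 0.535 CPM. In AG3 Krt14 (34.4 CPM), Krt17 (12.4 CPM) and Oxtr (2.08 CPM) were the highest of MamBo89. Trp63 was the lowest there, at 0.969 CPM against 7.41 to 13.0 CPM in the other MamBo89 libraries. Krt5 and Acta2 were at 0 CPM in AG3 and at most 0.0551 CPM in the others, and Myh11 (0.145 CPM) lay within their range. The part of such cells in the Cdh3 level was not tested.

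Levels of different cadherins were compared per kilobase of exon. Summed over Cdh1, Cdh2, Cdh3 and Cdh11, the level was 174 to 241 CPM per kilobase in the HER2-positive libraries, 46.4 and 22.9 in treated MamBo43, and 3.44 to 4.49 in MamBo38. Cdh1 made up 95.6% to 98.7% of that sum in the HER2-positive libraries. In MamBo38 Cdh2 made up 90.2% to 95.6%, although its own level of 3.10 to 4.30 CPM per kilobase lay within the 2.99 to 7.93 of the HER2-positive libraries. The share of Cdh2 in MamBo38 was therefore reached with no higher Cdh2 level. In treated MamBo43 Cdh1 was still 95% of the sum on the interrupted schedule and 68.5% on the continuous schedule. In the latter, Cdh11 contributed 12.9%, Cdh3 11.3% and Cdh2 7.31%.

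**Figure D2:**
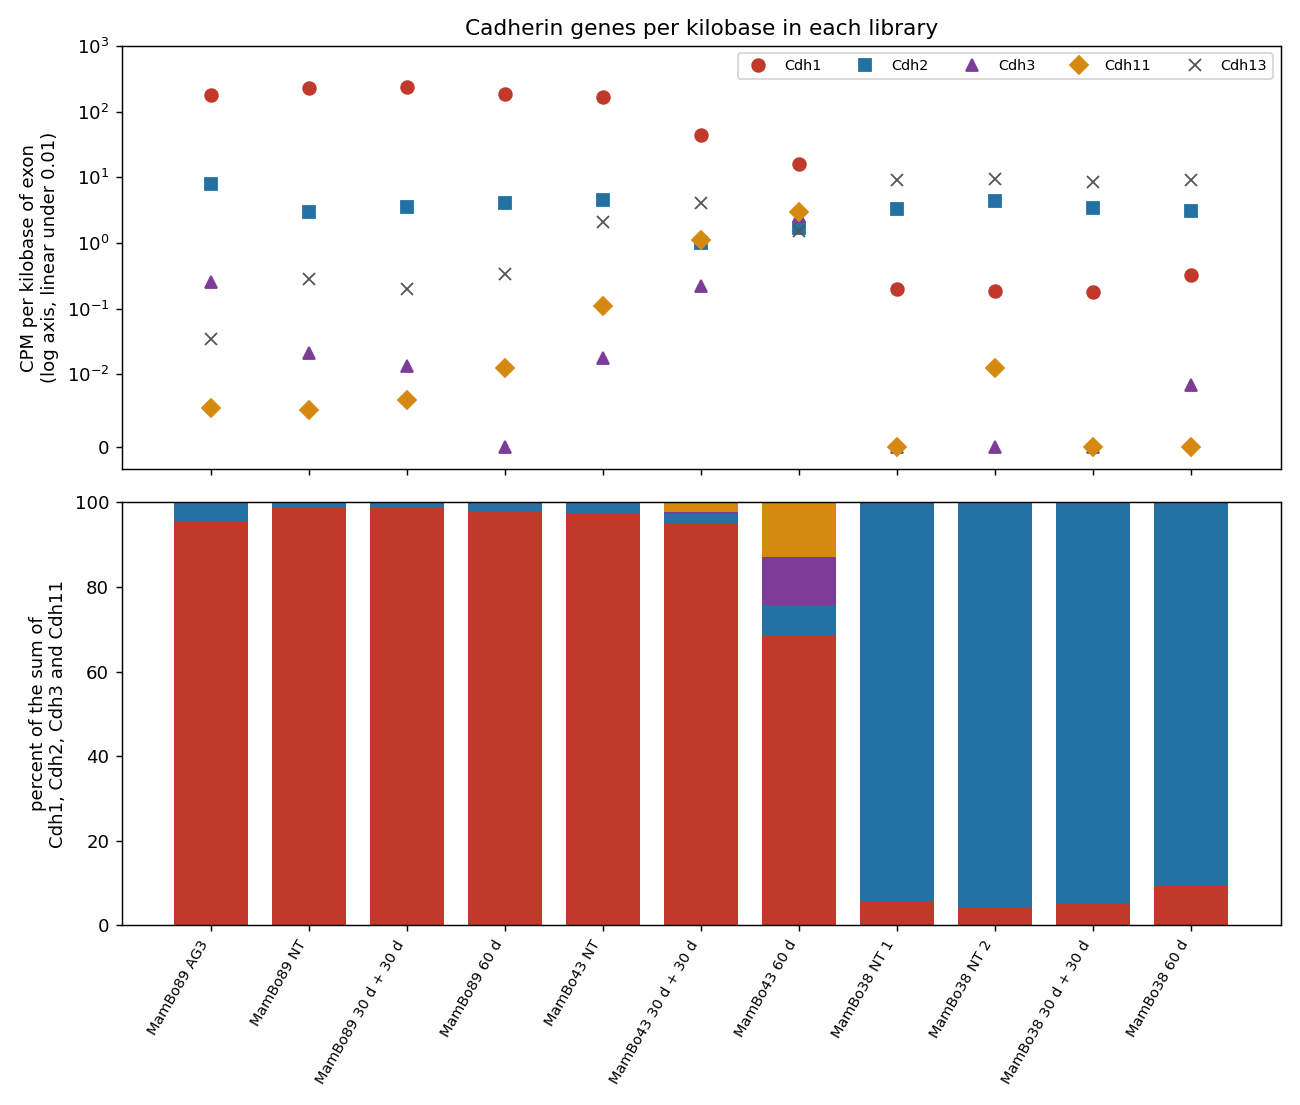
Above, CPM per kilobase of exon of 5 cadherin genes in each library (log axis, linear under 0.01). Below, the percent of the summed Cdh1, Cdh2, Cdh3 and Cdh11 level from each gene. Cdh2 fills 90.2% to 95.6% of the bars of MamBo38 with a level like that of the HER2-positive libraries, and Cdh11 and Cdh3 appear in treated MamBo43 (d, days with trastuzumab, then without; NT, untreated).

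Of 23 cadherin genes listed (the 4 above and other members of the family), 7 could be tested between HER2-negative and HER2-positive libraries, with 2 higher and 3 lower and a median log2 fold change of -0.72, against -0.04 over all genes tested. The higher genes were Cdh13 (3.54 ± 0.90, adjusted p = 0.00662) and Cdh24 (1.60 ± 0.28, adjusted p = 0.000709). Cdh13 encodes T-cadherin, which is anchored by a lipid and has no tail to bind catenins. It was at 101, 104, 94.0 and 102 CPM in MamBo38, 23.1 CPM in untreated MamBo43, 45.3 and 16.8 CPM in treated MamBo43 on the interrupted and the continuous schedule, and 0.388 to 3.85 CPM in MamBo89. The continuous-schedule library thus lay under untreated MamBo43. Per kilobase Cdh13 was the highest cadherin of MamBo38, at 8.37 to 9.26 CPM per kilobase, above Cdh2 in each of the 4 libraries. The lower genes were Cdh1, Cdh10 (-3.70, adjusted p = 0.0237) and Cdh23 (-4.97, adjusted p = 0.000173). Both were lowly expressed outside MamBo89: Cdh10 reached at most 0.785 CPM and Cdh23 at most 1.22 CPM in MamBo43 and MamBo38.

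Among the catenins, which bind the cadherin tails, the alpha- and beta-catenin genes moved little. Ctnna1 (alpha-catenin, chromosome 18) was at 534, 578, 578 and 504 CPM in MamBo89, 552 CPM in untreated MamBo43, 568 and 422 CPM in treated MamBo43, and 356, 424, 370 and 371 CPM in MamBo38. It was -0.39 ± 0.13 in HER2-negative libraries (adjusted p = 0.0285), a difference under 2-fold and so not called. Ctnnb1 (beta-catenin, also the effector of Wnt signalling, chromosome 9 at 120929216-120960507) was at 699, 608, 605 and 597 CPM in MamBo89, 573 CPM in untreated MamBo43, 691 and 665 CPM in treated MamBo43, and 800, 858, 851 and 897 CPM in MamBo38. It leaned the other way, by 0.36 ± 0.12 (adjusted p = 0.0214), again under 2-fold. MamBo38 held the 4 highest Ctnnb1 levels of the series. Of Ctnnb1 sequence, 11.1% of 75-base windows are shared with transcripts of the overlapping gene Ulk4, which read at most 1.45 CPM.

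Ctnnd1 (p120-catenin, which keeps cadherins at the membrane, chromosome 2 at 84600071-84650765) was the catenin among the 9 genes that was called. It was at 577, 473, 466 and 464 CPM in MamBo89 and 394 CPM in untreated MamBo43, against 165 and 167 CPM in treated MamBo43 and 193, 282, 205 and 219 CPM in MamBo38. The groups did not overlap, and the difference was -1.21 ± 0.16 (adjusted p = 9.95e-05). Ctnnd1 fell by nearly the same amount in both treated MamBo43 libraries, to 41.8% and 42.4% of the untreated level (-1.24 ± 0.24, adjusted p = 0.00742), and MamBo38 was not called apart from treated MamBo43 (-0.44 ± 0.18 for treated MamBo43 minus MamBo38, adjusted p = 0.105). Against untreated MamBo43, MamBo38 was at -0.81 ± 0.22 (adjusted p = 0.0169), under 2-fold. Transcripts of the predicted gene Gm28635 share 54.5% of the 75-base windows of Ctnnd1, and Gm28635 read 0 CPM in 9 of 11 libraries and at most 2.86 CPM.

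Jup, which encodes gamma-catenin, the catenin shared by adherens junctions and desmosomes, was followed as a comparison because it is no member. It was at 667, 600, 588 and 587 CPM in MamBo89, 453 CPM in untreated MamBo43, 80.1 and 40.9 CPM in treated MamBo43, and 15.7, 26.1, 16.5 and 20.5 CPM in MamBo38. Its pooled difference of -4.12 ± 0.44 (adjusted p = 2.86e-05) was near that of Cdh1 (-4.30). In MamBo38 against untreated MamBo43, however, Jup was at -4.52 and Cdh1 at -9.55. The levels of Jup, like those of Cdh1, were ordered from the HER2-positive libraries through treated MamBo43 to MamBo38. Per kilobase, the Ctnnb1 level was 0.484 to 0.726 times the summed level of the 4 cadherins in HER2-positive libraries, 2.87 and 5.59 times in treated MamBo43, and 36.8 to 50.2 times in MamBo38. The RNA of beta-catenin therefore did not follow the fall of the cadherin RNA.

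**Figure D3:**
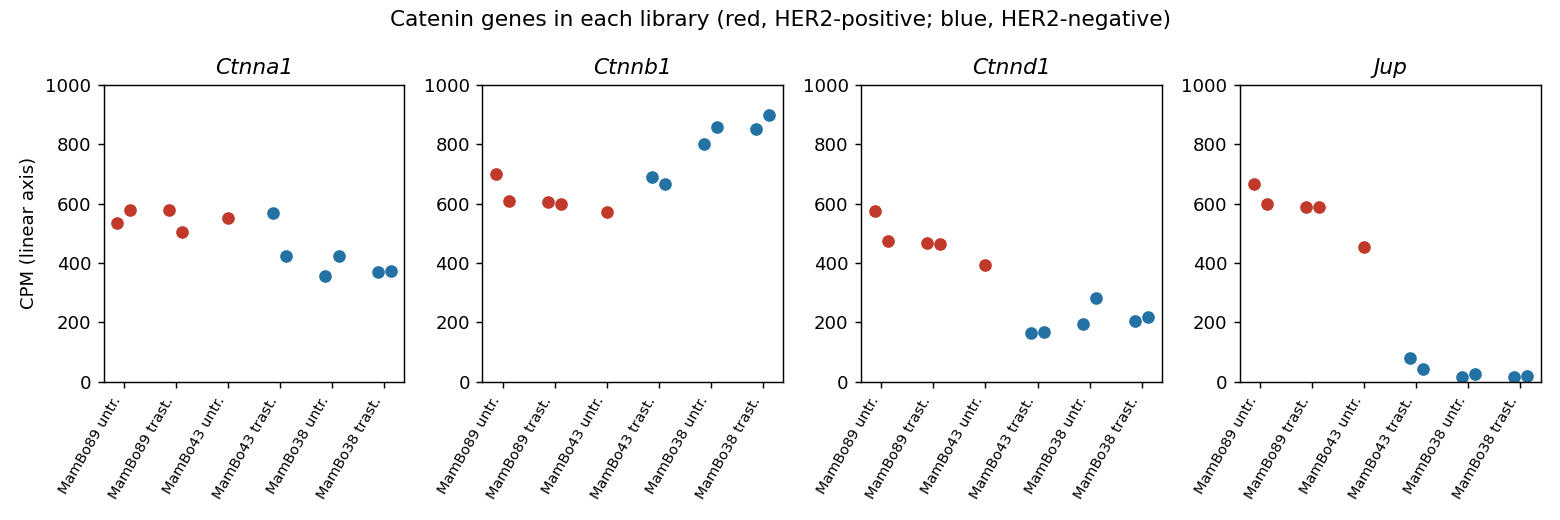
CPM of 3 catenin genes and of Jup in each library, on a linear axis from 0 (untr., untreated; trast., trastuzumab). Ctnna1 and Ctnnb1 stay between 356 and 897 CPM in every library, while Ctnnd1 is at most 282 CPM and Jup at most 80.1 CPM in the HER2-negative libraries.

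Among the 15 catenins and junction partners listed, 12 were tested, with 2 higher and 4 lower, and the median was -0.43. Beside Jup and Ctnnd1, Arvcf, a close relative of p120-catenin (-2.33, adjusted p = 0.000115), and Ctnnbip1, an inhibitor of beta-catenin (-1.12, adjusted p = 0.00772), were lower. Vcl (vinculin) and Lima1, which both bind actin, were higher by 2.20 (adjusted p = 4.88e-05) and 1.17 (adjusted p = 0.0193). Vcl was at 294 to 489 CPM in HER2-negative libraries against 50.2 to 128 CPM. Lima1 was at 146 to 195 CPM in MamBo38, 131 CPM in untreated MamBo43 and 40.7 to 59.8 CPM in MamBo89, and at 69.2 and 103.9 CPM in treated MamBo43, a difference from untreated that did not pass (-0.59 ± 0.30, adjusted p = 0.173). The HER2-negative and HER2-positive libraries thus overlapped in Lima1. Ctnnbip1 in untreated MamBo43 (15.6 CPM) lay within the HER2-negative range of 12.2 to 16.9 CPM.

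Epcam encodes an epithelial surface glycoprotein that mediates calcium-independent adhesion. It lies on chromosome 17 at 87635979-87651129 and was at 539, 728, 586 and 719 CPM in MamBo89 and 634 CPM in untreated MamBo43. Treated MamBo43 gave 159 CPM on the interrupted and 30.6 CPM on the continuous schedule. In MamBo38 it was barely detected, with 1, 5, 2 and 1 counts per library (0.0482, 0.279, 0.119 and 0.0375 CPM). The pooled difference was -4.34 ± 1.74 (adjusted p = 0.0554). Leaving out the interrupted-schedule MamBo43 library moved it to -6.66. By counts, untreated MamBo43 held 5784 times the Epcam of MamBo38 (95% exact interval 3046 to 12652, counting error only), and MamBo38 was called lower than untreated MamBo43 at an adjusted p of 2.08e-05.

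Nectin4 encodes a nectin, an immunoglobulin-type adhesion receptor that is found in few adult tissues and, in human carcinomas, is an antibody-drug target. It lies on chromosome 1 at 171370099-171388598. It was at 44.4, 47.6, 35.3 and 29.3 CPM in MamBo89 and highest, at 78.2 CPM, in untreated MamBo43. Treated MamBo43 gave 18.3 and 4.28 CPM, and MamBo38 gave 3, 9, 3 and 3 counts (0.112 to 0.502 CPM). The pooled difference was -3.58 ± 1.20 (adjusted p = 0.0260), and -5.44 without the interrupted-schedule MamBo43 library. MamBo38 lay -8.50 ± 0.66 below untreated MamBo43 (adjusted p = 3.64e-05).

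The sequences directly upstream of these genes are shown because both went from well measured to near the floor, and because the Cdh1 repressors of the Snail and Zeb families bind the E-box CACCTG or its reverse complement CAGGTG. RefSeq upstream sequences were at hand for 4 of the 9 genes (Epcam, Nectin4, Ctnnb1 and Ctnnd1). The 250 bases before the Epcam start, chr17:87635729-87635978 (plus strand, GRCm38.p6), hold the E-box once in each orientation, at 187 and 19 bases before the start (in capitals). The Nectin4 sequence, chr1:171369923-171370098 (plus strand), is cut where the annotated transcript begins and holds none, as do the full 250-base windows of Nectin4, Ctnnb1 and Ctnnd1.
Epcam: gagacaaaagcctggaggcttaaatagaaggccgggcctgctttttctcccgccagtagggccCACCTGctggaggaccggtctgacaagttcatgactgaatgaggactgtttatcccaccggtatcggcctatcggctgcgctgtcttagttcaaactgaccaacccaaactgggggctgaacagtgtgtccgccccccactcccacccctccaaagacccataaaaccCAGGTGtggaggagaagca
Nectin4: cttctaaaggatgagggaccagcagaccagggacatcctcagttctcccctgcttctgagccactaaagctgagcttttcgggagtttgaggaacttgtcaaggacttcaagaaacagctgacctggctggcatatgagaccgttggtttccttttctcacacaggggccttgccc
Of 32817 windows of that length in the RefSeq set, 17.2% hold the E-box in either orientation. A match is a run of letters and not a measured binding site.

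Trastuzumab-treated MamBo43 was compared with untreated MamBo43 to follow these genes as HER2 was lost in culture. With 1 untreated library, the fit took its spread from the groups of more than 1 library. Libraries within those groups differ in schedule, in label code or as AG3 from parental cells, so they are not plain replicates. Of the 9 genes, 7 were called, against 28.5% of the 13782 genes tested: Cdh1 (-2.50 ± 0.50, adjusted p = 0.00821), Epcam (-2.74 ± 0.72, adjusted p = 0.0229), Nectin4 (-2.80 ± 0.65, adjusted p = 0.0148), Cdh2 and Ctnnd1 fell, and Cdh11 and Cdh3 rose. Without the interrupted-schedule library the falls of Epcam and Nectin4 were -4.39 and -4.21. On the interrupted schedule 25.9% of the untreated Cdh1 level, 25% of Epcam and 23.4% of Nectin4 were left, and on the continuous schedule 9.26%, 4.84% and 5.47%. The luminal markers above 1 CPM in untreated MamBo43 were spread widely around these values, with 1 library per schedule and hence no test. On the interrupted schedule Krt7 was at 247%, Krt18 at 84.1%, Krt8 at 73.2%, Esr1 at 65.04%, Csn3 at 9.81%, Pgr at 3.95%, Prlr at 2.21%, Csn2 at 0.828% and Elf5 at 0.467% of untreated. On the continuous schedule the same markers lay between 1.82% and 52.5%.

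**Figure D4:**
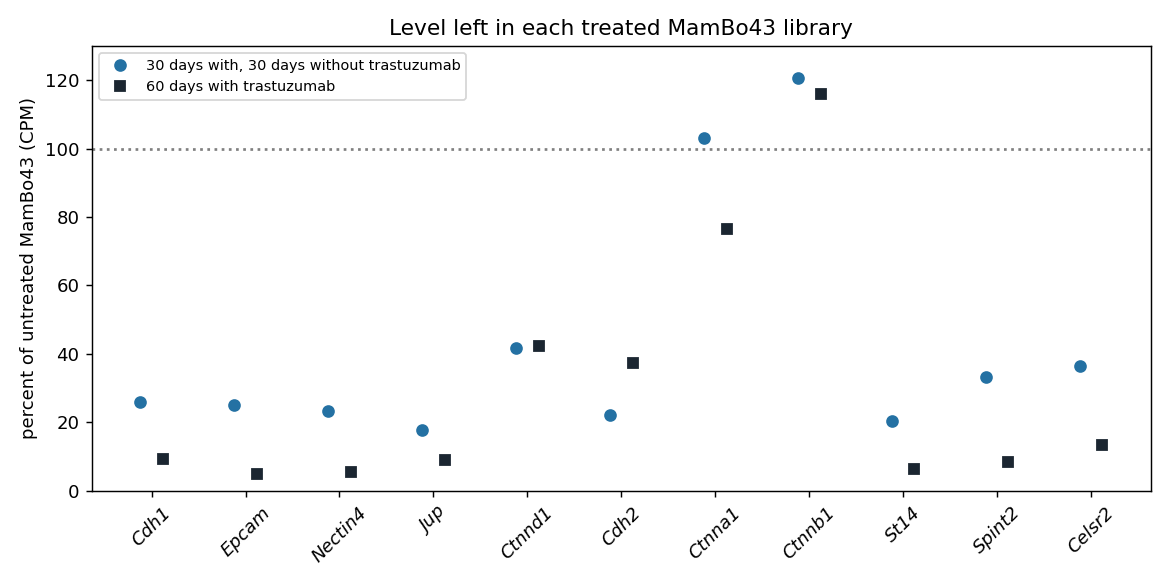
Level in each treated MamBo43 library as a percent of untreated MamBo43 (dotted line, 100), 1 library per schedule, for members, Jup, 2 surface genes of the Epcam list and Celsr2. Cdh1, Epcam and Nectin4 lie at 23.4% to 25.9% on the interrupted schedule and at 4.84% to 9.26% on the continuous schedule, Ctnnd1 near 42% on both, and Ctnna1 and Ctnnb1 at 76.4% to 121%.

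Treated MamBo43 and MamBo38 are both HER2-negative and both descend from MamBo43, one in culture and the other through a tumor. Of the 9 genes, 6 were called between them, where 20.2% of genes were: treated MamBo43 held more Cdh1 (7.04 ± 0.43, adjusted p = 7.48e-05), Epcam (9.74 ± 0.78, adjusted p = 0.000157), Nectin4 (5.70 ± 0.62, adjusted p = 0.000523), Cdh11 (9.94 ± 0.80, adjusted p = 0.000275) and Cdh3 (8.89 ± 1.59, adjusted p = 0.0067), and less Cdh2. The fitted values of Cdh11 and Cdh3 depend on the small number added to counts near 0. None of the 3 catenins was called (adjusted p = 0.105 to 0.124).

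**Figure D5:**
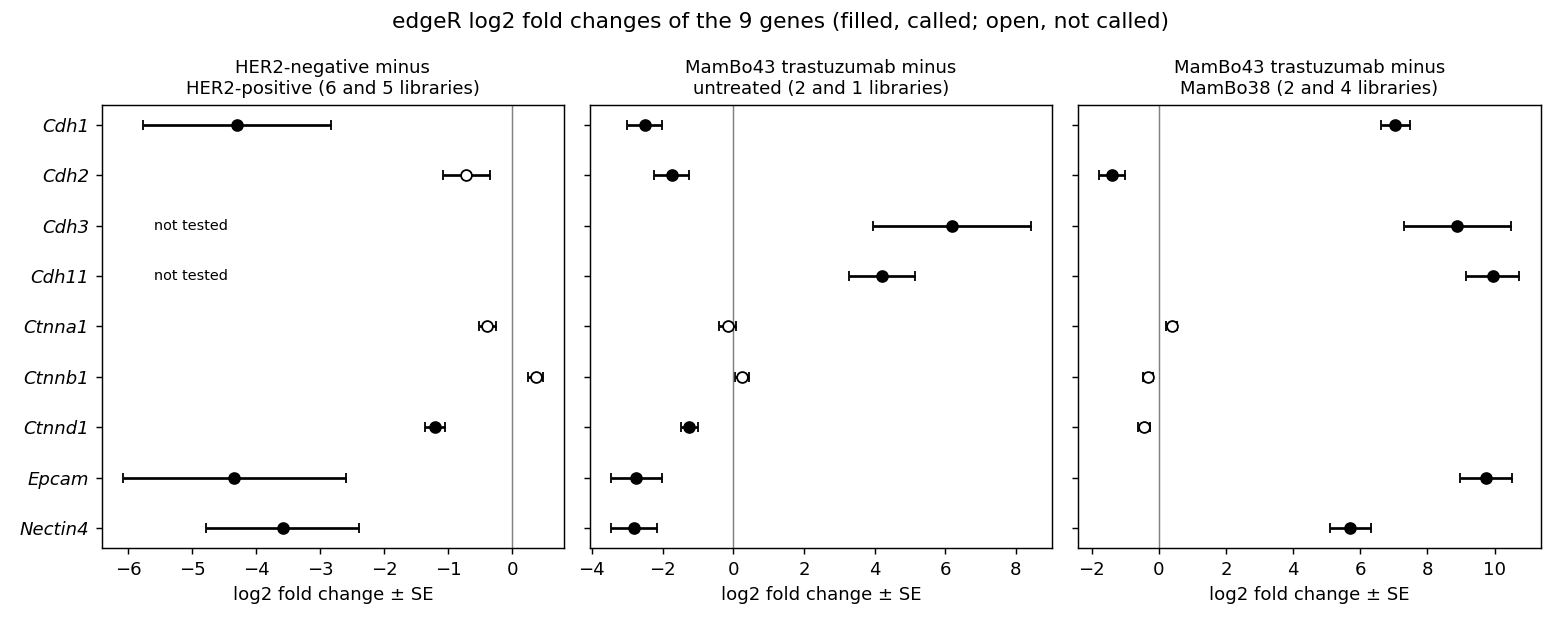
edgeR log2 fold changes (points) with standard errors (bars) of the 9 genes in 3 comparisons, filled where called; Cdh3 and Cdh11 were not tested in the first. Cdh1, Epcam and Nectin4 are lower in HER2-negative libraries and in treated MamBo43, yet higher in treated MamBo43 than in MamBo38.

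Trastuzumab did not move any of these genes past the threshold in the other lines. In MamBo89, 0 of the 9 genes were called by edgeR and none had an unadjusted p under 0.05. Across all genes 0 were called there, with 724 (5.25%) at an unadjusted p under 0.05 and 29 called by DESeq2. Without the parental MamBo89 library, which leaves AG3 as the only untreated library, Cdh2 was called lower (-1.08, adjusted p = 0.0444), and without AG3 its value was 0.33. In MamBo38, 0 of the 9 were called, and across all genes 0 by edgeR, 230 (1.67%) at an unadjusted p under 0.05 and 1 by DESeq2. The response of MamBo43 minus that of MamBo89 was called for 4 of the 9 genes, where 22.2% of genes were: Cdh1 (-2.55 ± 0.66, adjusted p = 0.0359), Epcam (-2.78 ± 0.94, adjusted p = 0.0798), Ctnnd1 (-1.06 ± 0.32, adjusted p = 0.0568) and Cdh3 (10.3 ± 3.02, adjusted p = 0.0578, from 0 to 23 counts in MamBo89). Nectin4 missed the threshold (-2.28 ± 0.85, adjusted p = 0.102). With single libraries left out, its value ranged from -3.71 to -1.58 and that of Epcam from -4.44 to -2.03. Cdh1 was the member whose difference was called under every alternative that was run.

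Most of the other surface genes listed with Epcam were lower too. Of the 7 genes in that list all were tested, 6 were lower and 0 higher in HER2-negative libraries, and the median was -3.64, against -0.04 over all genes. Beside Epcam, St14 (matriptase) and its inhibitor Spint2 were lower (-4.19, adjusted p = 0.0444, and -3.64, adjusted p = 0.0763), both under 0.6 CPM in MamBo38. Cldn7, a claudin that binds Epcam, was at 0.0482 to 0.298 CPM in MamBo38 and 12.2 to 247 CPM in HER2-positive libraries. Treated MamBo43 gave 42.8 CPM on the interrupted and 9.09 CPM on the continuous schedule, so the groups overlapped. Cldn7 did not pass the test (-3.09 ± 1.53, adjusted p = 0.111).

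The nectins did not move as a block. Of 9 nectin and nectin-like genes 7 were tested, 4 were lower and 1 was higher, with a median of -2.34. Cadm1, a nectin-like receptor (-3.82, adjusted p = 0.0361), was at 17.1 to 38.3 CPM in HER2-positive libraries and at 0.0482 CPM or less in MamBo38. Nectin1 and Cadm4 were also lower (-2.52, adjusted p = 0.000632, and -2.34, adjusted p = 0.00021). Nectin1 was high in MamBo89 alone, at 56.8 to 127 CPM, and in untreated MamBo43 (18.0 CPM) it lay within the HER2-negative range of 10.2 to 24.3 CPM. Nectin2 was higher (1.31, adjusted p = 0.000225), at 93.5 to 201 CPM against 50.7 to 75.9. Of the 12 atypical cadherins, 7 were tested, with 4 lower (Dchs2, -4.68, adjusted p = 0.0160; Celsr2, -3.43, adjusted p = 0.0459; Celsr1, -3.33, adjusted p = 0.0414; Fat1, -1.75, adjusted p = 0.0458) and 0 higher, and a median of -1.75. Celsr1 and Celsr2 belong to planar cell polarity. In Fat1 the groups overlapped: treated MamBo43 (476 and 442 CPM) lay near MamBo89 (461 to 544 CPM). Untreated MamBo43 was at 1238 CPM and MamBo38 at 60.4 to 64.2 CPM.

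Of 12 genes that shed or turn over cadherins, 11 were tested, 1 was higher (Adam15, 1.5, adjusted p = 0.000844) and 0 were lower, and the median was -0.09. Adam10, the main E-cadherin sheddase, was at 102 to 131 CPM in HER2-negative and 138 to 262 CPM in HER2-positive libraries (-0.86, adjusted p = 0.000987, under 2-fold). Of 10 targets of beta-catenin, 8 were tested, 3 were lower and 1 was higher, with a median of -0.54. Lef1 (-5.30, adjusted p = 6.68e-05) and Tcf7 (-2.18, adjusted p = 1.68e-05), partners of beta-catenin on DNA, and Ccnd1 (-1.15, adjusted p = 0.0149) were lower, and Notum, a secreted Wnt inhibitor, was higher (2.73, adjusted p = 0.0108). Notum was at 13.1 to 21.4 CPM in MamBo38, but treated MamBo43 (2.30 and 3.29 CPM) lay within the HER2-positive range of 0.388 to 3.87 CPM. Ccnd1 overlapped too, at 742 CPM in 1 untreated MamBo38 library against 575 CPM in untreated MamBo43. Axin2, a widely used target, was at 0.262 to 2.35 CPM throughout and did not pass (0.15 ± 0.64, adjusted p = 0.863).

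Of 8 repressors of Cdh1 all were tested, 5 were higher and 0 lower, with a median of 2.72. Zeb1 (6.25 ± 0.73, adjusted p = 4.99e-05), Zeb2 (6.09 ± 0.49, adjusted p = 5.71e-06), Twist2 (5.94 ± 0.74, adjusted p = 7.26e-05) and Snai2 (3.47 ± 0.55, adjusted p = 0.000365) led. Snai1 (-0.13 ± 0.38, adjusted p = 0.793) and Twist1 (0.26 ± 0.14, adjusted p = 0.153) did not pass. In treated MamBo43 against MamBo38, 1 of the 8 was called lower (Twist2, -1.45 ± 0.54, adjusted p = 0.0773) and 0 higher, with a median of -0.76 against 0.02 over all genes tested. There Zeb1 was at 47.5 and 54.0 CPM against 98.3 to 111 CPM (-1.07 ± 0.43, adjusted p = 0.101), and Zeb2 at 116 and 144 CPM against 106 to 138 CPM (0.05 ± 0.37, adjusted p = 0.945). The repressor list is not independent of earlier results of these data.

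The genes whose log2(CPM + 0.5) ran closest to Cdh1 over the 11 libraries were Shroom2, Rapgef5, Ap1m2, Ptprf and Map7 (Pearson r 0.998 to 0.999). For Epcam they were Shroom2, Lsr, St14, Cldn3 and Ap1m2 (r = 0.999 for each). For Cdh2 they were Lig1, Trp53bp1, Tert, Ywhaq and Tet1 (r 0.937 to 0.950), and for Ctnnb1 Npr1, Cdt1, Fmnl1, Map4 and Rasip1 (r 0.970 to 0.982). These are descriptions over libraries of 3 lines that share their origin, picked as the highest of all genes tested. Over the same libraries Epcam and Nectin4 ran with Cdh1 (r = 0.997 and 0.983) and Cdh2 did not (r = 0.0667).

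Markers of other cells were measured beside these results. Several markers of leukocytes and endothelium were at or near 0: Ptprc, Cd3e, Adgre1 and Cldn5 reached at most 0.0558 CPM and Cdh5, the endothelial cadherin, at most 0.0583 CPM in any library. The leukocyte list, 10 genes, summed to 3.78 to 50.1 CPM in HER2-negative and 1.137 to 16.8 CPM in HER2-positive libraries, and Cd68, a lysosomal protein not limited to leukocytes, was its only gene tested (1.67, adjusted p = 0.0885). The endothelial list, 9 genes, summed to 3.64 to 16.8 CPM over all libraries. Flt1 made up most of that sum, at 2.80 to 16.5 CPM, with Egfl7 at most 2.53 CPM and Pecam1 at most 0.725 CPM. Of 2 endothelial genes tested, 1 was called lower in HER2-negative libraries and 0 higher. The luminal list, 10 genes, summed to 1623 to 3749 CPM in HER2-positive libraries, 2058 and 294 CPM in treated MamBo43, and 24.6 to 32.7 CPM in MamBo38, with 4 of 8 tested genes called lower. In MamBo38 the luminal keratins that mark the labelled mammary epithelium were near absent (Krt8 at most 0.279 CPM, Krt18 at most 1.06 CPM). Esr1 of that list was at 19.4 to 25.8 CPM in MamBo38, against 7.05 to 9.27 CPM in MamBo89 and 32.9 CPM in untreated MamBo43. It made up most of the luminal sum of MamBo38. The basal list, 7 genes, summed to 114 and 622 CPM in treated MamBo43 and at most 50.01 CPM in every other library. The fibroblast list, 10 genes, summed to 36.1 to 98.2 CPM in MamBo89, 358 CPM in untreated MamBo43, 7398 to 8135 CPM in treated MamBo43 and 4201 to 4978 CPM in MamBo38, with 6 of 6 tested genes called higher in HER2-negative libraries. Its members Lum, Fap and Dpt were at most 0.229 CPM in every library. The adipocyte list reached at most 2.67 CPM. The part of other cells in the cadherin levels was not tested.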

How the data were processed

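RNA of 11 cultures was sequenced by the authors (TruSeq RNA, 75-nt single-end reads), aligned with STAR 2.5 to mm10 and summed per gene with RSEM 1.3.0, per the labels and the study's methods. The deposited values are expected counts, all whole numbers, for 21846 genes. The strand setting is not given in the sources used here.

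Counts were scaled by TMM and tested in edgeR 4.0.16 (R 4.3.3) with the quasi-likelihood test, after filterByExpr (10 counts, total 15). HER2-negative (n = 6) and HER2-positive (n = 5) libraries were compared in a 2-group fit, and the other comparisons in 1 fit of 6 groups of line and treatment. HER2 status of each line was taken from the study's methods. Calls used the study's thresholds (adjusted p 0.1, log2 change of 1 in either direction), and SEs were derived from the F statistics. Alternatives were DESeq2 1.42.0, other scaling, filters, covariates and left-out libraries.

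No label ties libraries of a group to separate cultures, so p-values measure the spread between libraries, which may be technical. In the fit of 6 groups that spread also holds differences of schedule, of label code and of AG3 from parental MamBo89. In the 2-group fit it holds differences between lines as well. No 2 libraries of a line agreed within sampling noise (lowest chi-square per degree of freedom 7.88). Intervals and floors cover counting error only.

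Coordinates and exon lengths are from GENCODE M21, upstream sequences from RefSeq (GRCm38.p6). The members and lists were chosen with earlier results of these data known. Named by rule were the 9 members, Jup and the Snail, Zeb and Twist genes, from each list up to 4 called genes per direction with the largest change between HER2-negative and HER2-positive libraries, and for 4 members the 5 genes most like them. A gene that the rule names in the Epcam list is not reported here. Cldn7, Adam10, Axin2 and the cell markers given were named after their values were seen. On simulated data with 200 genes changed 4-fold the test recovered 98% for HER2 status, 75.5% for treated against untreated MamBo43 and 52% for the difference of responses. The simulation gave every library the same baseline level of a gene, so it lacked the differences between lines within the real HER2 groups. It changed only genes above a set abundance. The 98% therefore cannot be carried over to genes that differ between the HER2-negative lines, such as Cdh1, Epcam and Nectin4.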

Additional observations from a re-analysis of the deposited data

Results flagged for a closer look

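In groups of 6 HER2-negative or 5 HER2-positive libraries, the most extreme library was farther from its neighbour than Dixon's 95% limit in 8 of 18 tests, where chance gives about 1 in 20. In the HER2-negative group the highest values of Cdh1 (201 CPM), Epcam (159 CPM), Nectin4 (18.3 CPM) and Ctnna1 (568 CPM) were those of MamBo43 on the interrupted schedule, and the highest of Cdh3 (11.3 CPM) that of MamBo43 on the continuous schedule. These groups join 2 lines with different levels. In the HER2-positive group AG3 was highest for Cdh3 (1.11 CPM) and Ctnnb1 (699 CPM), and untreated MamBo43 for Cdh11 (0.981 CPM).

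The effect of trastuzumab differed between MamBo43 and MamBo89 by the interaction term for Cdh1 (-2.55), Epcam (-2.78), Ctnnd1 (-1.06) and Cdh3 (10.3). The Cdh3 value rests on 26 counts over the 4 MamBo89 libraries, 23 of them in AG3, and without AG3 it was 7.69 (adjusted p = 0.212). Calls of Epcam, Ctnnd1 and Cdh3 were each lost when certain single libraries were left out.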

How the results depend on the processing

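Between HER2-negative and HER2-positive libraries, 4 members were called. With tumor of origin as a covariate 1 was left, Nectin4, because Cdh1 (-4.07, adjusted p = 0.146) and Epcam (-4.33, adjusted p = 0.180) missed the p and Ctnnd1 (-0.94) the fold; untreated MamBo43 is then the only HER2-positive library of tumor B. DESeq2 called 2 and gave no adjusted p for Cdh1 and Epcam, and a minimum of 10 counts in every library left 2 because it removes Epcam and Nectin4. All genes called fell from 4052 to 2597 under that minimum. At an adjusted p under 0.05, 3 were called. The labels carry 2 codes, all HER2-positive libraries share 1 of them, and in libraries of that code alone 5 were called. Added after seeing the data, the comparison without the MamBo43 libraries, and those of MamBo38 with untreated MamBo43 and with MamBo89, called 4 each, with Cdh1 at -9.79, -9.55 and -9.83. Across all genes tested, 35.8% were called for MamBo38 against untreated MamBo43 and 41.8% against MamBo89. Leaving out any library gave 4, with 3795 to 4607 of all genes called. Where no count or share of all genes is given here, the member count cannot be set against it.

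For treated against untreated MamBo43 (7 called), leaving out a library gave 6, and all genes called fell from 3927 to 2607 without the continuous-schedule library. Ctnna1 ranged from -0.41 to 0.0453 there. In the libraries of the contrast alone Cdh3 (adjusted p = 0.118) and Epcam (adjusted p = 0.108) were not called. For untreated MamBo43 against MamBo89, the libraries of the contrast alone gave 0 members, and 952 genes in place of 2134. For trastuzumab in MamBo89, leaving out a library gave 0 to 1 members, Cdh2 ranged from -1.08 to 0.33, and all genes called reached 2148 without the parental library. For the difference of responses (4 called), the libraries of the contrast alone gave 1 member and 1633 of 3062 genes, and leaving out a library gave 1 to 5, with Ctnna1 from -0.375 to 0.0929; 1664 genes were called without continuous-schedule MamBo43 and 1606 without continuous-schedule MamBo89. The cause of these changes was not tested except where given. With the longest transcript as length, Cdh1 made up 95.8% and Cdh2 4.08% of the 4 cadherins in untreated MamBo43 (97.4% and 2.57% per exon union). No paired analysis was run, because the labels give no replicate numbers that groups share. The schedules and codes that recur across groups were not used as pairs.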
